A study of Mus musculus with 6 samples.

Results

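Liver zonation is the division of labour between hepatocytes along the path of the blood, and the 10 genes described here are markers of its opposite ends. Glul, Cyp2e1, Cyp1a2, Axin2, Lgr5 and Tbx3 mark hepatocytes around the central vein (pericentral), and Cyp2f2, Hal, Sds and Gls2 mark those around the portal vein (periportal). The list was taken as given, and each gene was read from the probe set, among those annotated with exactly 1 gene symbol, that had the highest mean over all 6 arrays. By that rule 8 of the 10 genes were measured, 6 pericentral and 2 periportal, out of 18194 genes in all. Sds and Gls2 were not analysed here.

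Whole livers came from CYP2D6-humanized mice on a C57BL/6 background, whose transgene is the human P450 gene CYP2D6. They were collected before pregnancy, at day 21 of pregnancy and at day 7 postpartum. Each stage had 2 biological replicates, with 1 array for each. All 3 stages carry the transgene, and no mice without it are among the samples. The labels used here state no age, feeding, collection time or promoter for the transgene.

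Blood enters the liver lobule at the portal vein and leaves at the central vein, so oxygen and nutrients decline on the way. Wnt ligands and R-spondins made by endothelial cells of the central vein switch on beta-catenin in the nearest hepatocytes, which then take up ammonia as glutamine and carry much of the P450 activity. Periportal hepatocytes are known for urea synthesis, glucose production and the breakdown of amino acids. A whole-liver array averages over the lobule, so fewer cells of a zone and less RNA per cell cannot be told apart here, and the position of a transcript is not measured.

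The median log2 value of an array was 5.09 to 5.15, replicate arrays correlated across genes at 0.994 to 0.997, and the number of arrays limits the precision. The hepatocyte markers Alb, Apoa1, Ttr, Serpina1c, Apob and Hnf4a, 6 of 7 listed, averaged 14.16 to 14.2 before pregnancy, 14.28 to 14.34 at day 21 and 14.26 to 14.29 postpartum (log2, mean over the list per array). Most of that step came from Apob, at 13.5 and 13.58, then 14.13 and 14.11, then 14.06 and 14.09. The median difference from pre-pregnancy over the 6 was 0.08 at day 21 and 0.01 postpartum, against 0.05 and 0.03 over all genes. Bile duct markers averaged 4.48 to 5.19 and pancreatic acinar markers 5.49 to 5.66 over all arrays, and 5 of 6 measured genes in each of these lists lay below the 40th percentile of gene brightness. The other acinar gene, Cela1 (85.8 percentile), read 10.37 and 10.46 before pregnancy, 9.14 and 9.33 at day 21 and 9.42 and 9.32 postpartum. Endothelial markers (15 of 15 measured) averaged 7.4 to 7.54 before pregnancy, 7.17 to 7.35 at day 21 and 7.2 to 7.28 postpartum. Stellate cell markers (10 of 10) averaged 9.05 to 9.14, 8.78 to 8.83 and 8.65 to 8.9 at these stages, Kupffer cell markers (9 of 9) 9.34 to 9.43, 8.98 to 9.31 and 9.36 to 9.46, red blood cell markers (2 of 4) 5.68 to 5.83, 5.75 to 5.92 and 5.53 to 5.69, and proliferation markers (5 of 6) 5.99 to 6.26, 5.14 to 6.24 and 6.61 to 7.38. None of these markers is listed at 0, but the lowest values of the arrays were 2.69 to 2.81, so this does not show that each was detected. The part of these markers in the results below was not tested.

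No zonation marker passed the test between any of the stages on the probe set used. In limma's moderated test over all 18194 genes, with Benjamini-Hochberg adjustment and a threshold of 0.05, 0 of 8 markers passed in pregnancy against pre-pregnancy, where 13.7% of all genes passed. The count was also 0 of 8 for postpartum against pregnancy (3.29% of all genes) and 0 of 8 for postpartum against pre-pregnancy (7.66% of all genes). At an unadjusted p under 0.05 the counts were 1, 2 and 3 of 8, beside 31%, 20.7% and 22.9% of all genes. The 3 comparisons share arrays, so their values are not independent. The distance between the highest and the lowest stage mean of a marker had a median of 0.35 on the log2 scale over the 8 markers, against 0.26 over all genes. None of the 24 differences reached 2-fold, and the 95% confidence intervals ran from -0.72 at the lowest to 0.97 at the highest. A marker that did not pass is therefore not shown to be unchanged. A second Glul probe set, described below, passed in pregnancy against pre-pregnancy (0.63 ± 0.103, limma adjusted p = 0.00916).

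**Figure D1:**
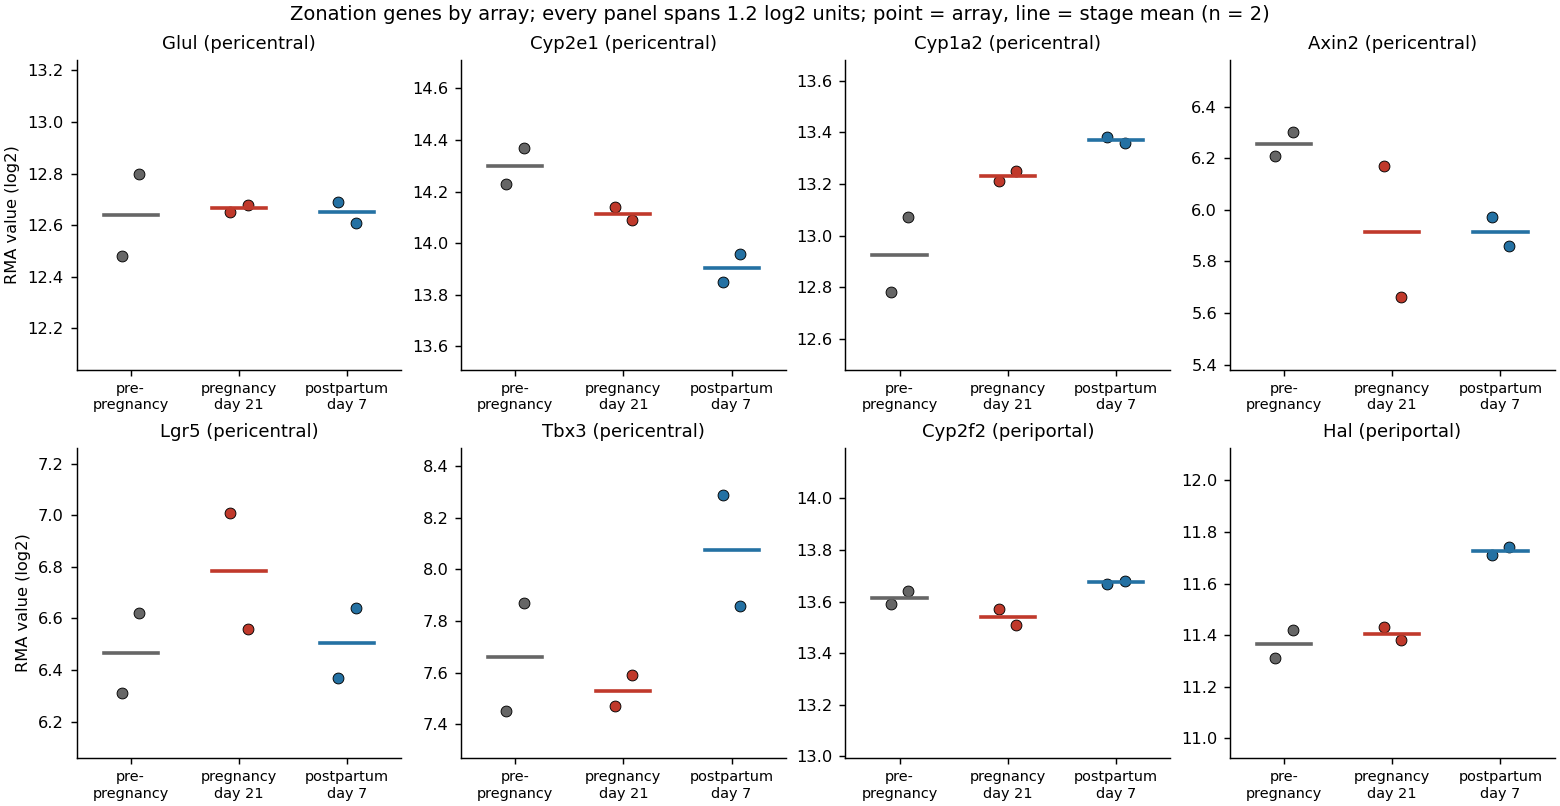
RMA value (log2) of the 8 measured zonation markers on each array, by stage; points are arrays, lines are the means of 2 arrays, and every panel spans the same log2 distance. Cyp2e1 steps down and Cyp1a2 steps up from stage to stage, Hal stands higher postpartum, and the stages of Glul and Lgr5 overlap.

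Cyp2e1, Cyp1a2 and Hal came nearest to the threshold, all in postpartum against pre-pregnancy, and their promoters are shown for that reason. RefSeq promoters (GRCm38.p6, 250 bases before to 50 from the transcription start, 5′ to 3′ on the gene's strand) were found for 6 of the 10 genes. Capitals mark CTTTGA, a core of the sequence bound by the TCF/LEF partners of beta-catenin, or its reverse complement TCAAAG.
Cyp2e1, chr7:140763569-140763868, plus strand: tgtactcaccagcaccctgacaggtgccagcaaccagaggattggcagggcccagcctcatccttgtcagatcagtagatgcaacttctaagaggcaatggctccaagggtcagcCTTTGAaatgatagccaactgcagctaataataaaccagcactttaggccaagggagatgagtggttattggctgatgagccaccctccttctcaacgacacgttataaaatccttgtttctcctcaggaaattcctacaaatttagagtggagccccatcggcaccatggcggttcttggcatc
Cyp1a2, chr9:57683606-57683905, minus strand: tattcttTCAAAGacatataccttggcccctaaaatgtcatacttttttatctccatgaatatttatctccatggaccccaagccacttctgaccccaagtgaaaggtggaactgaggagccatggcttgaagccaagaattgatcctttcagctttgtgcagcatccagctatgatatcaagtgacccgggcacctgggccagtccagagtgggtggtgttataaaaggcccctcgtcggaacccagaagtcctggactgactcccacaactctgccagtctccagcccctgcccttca
Hal, chr10:93488518-93488817, plus strand: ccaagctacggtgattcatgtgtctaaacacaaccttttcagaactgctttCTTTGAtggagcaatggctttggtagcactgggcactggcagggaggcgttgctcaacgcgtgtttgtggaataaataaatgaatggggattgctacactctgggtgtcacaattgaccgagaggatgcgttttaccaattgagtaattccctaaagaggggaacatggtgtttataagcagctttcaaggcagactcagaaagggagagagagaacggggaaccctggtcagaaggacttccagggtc
These 6 letters began 135 bases before the start of Cyp2e1, 243 before that of Cyp1a2 and 199 before that of Hal. They were in 3 of the 6 promoters and in 16.0% of the 32851 promoters in the table, and they were not in these windows of Glul, Axin2 and Cyp2f2. Cyp2e1 and Cyp1a2 are pericentral and Hal is periportal, and the differences of Cyp2e1 and Cyp1a2 had opposite signs. The letters were searched for on both strands after the expression values had been seen, and a match is a description of the sequence only.

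Glul encodes glutamine synthetase, which joins ammonia to glutamate in the last ring of hepatocytes around the central vein. On its brightest probe set, Glul stood at 12.48 and 12.8 before pregnancy, 12.65 and 12.68 at day 21 and 12.69 and 12.61 postpartum (log2). The stages overlapped, and the pre-pregnancy arrays alone were farther apart than any stage means. The log2 difference was 0.03 ± 0.127 (SE, 95% interval -0.27 to 0.32, limma adjusted p = 0.913) in pregnancy against pre-pregnancy, and 0.01 ± 0.127 (-0.28 to 0.3, adjusted p = 0.979) in postpartum against pre-pregnancy. A second Glul probe set, dimmer by its mean over all arrays, gave a different picture. It stood at 10.6 and 10.71 before pregnancy, 11.3 and 11.26 at day 21 and 10.8 and 10.84 postpartum, so that both day 21 arrays lay above the other 4. Tested among all 34958 probe sets with 1 symbol, this probe set was higher in pregnancy than before it by 0.63 ± 0.103 (adjusted p = 0.00916, where the alternatives for Glul ran from 0.00916 to 0.975). The same probe set differed by -0.46 ± 0.103 (adjusted p = 0.0618) between postpartum and pregnancy. The size of the pregnancy difference and its call therefore depended on the probe set, while the sign was positive on both. What the probe sets detect was not tested.

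Cyp2e1, the ethanol- and acetaminophen-oxidising P450, had the lowest adjusted p of the 8 markers. It stood at 14.23 and 14.37 before pregnancy, 14.14 and 14.09 at day 21 and 13.85 and 13.96 postpartum (log2). The 3 stages did not overlap, with the highest values before pregnancy and the lowest postpartum. Postpartum against pre-pregnancy the log2 difference was -0.39 ± 0.106 (SE, 95% interval -0.64 to -0.15, 24% lower on the linear scale, limma adjusted p = 0.0661). The steps on the way were -0.19 ± 0.106 in pregnancy against pre-pregnancy (adjusted p = 0.277) and -0.21 ± 0.106 in postpartum against pregnancy (adjusted p = 0.313). Leaving out each array in turn kept the postpartum difference between -0.46 and -0.33.

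Cyp1a2, the P450 that clears caffeine and is induced through the aryl hydrocarbon receptor (AhR), ran the other way. Its arrays read 12.78 and 13.07 before pregnancy, 13.21 and 13.25 at day 21 and 13.38 and 13.36 postpartum (log2), again with no overlap between stages. Postpartum against pre-pregnancy it differed by 0.45 ± 0.121 (SE, 95% interval 0.16 to 0.73, 36.1% higher, limma adjusted p = 0.0674). Without pre-pregnancy replicate 1, the lowest array, that difference was 0.3, and without pre-pregnancy replicate 2 it was 0.59. The pregnancy difference of 0.31 ± 0.121 (adjusted p = 0.133) likewise depended on the pre-pregnancy arrays, at 0.16 and 0.45 without replicates 1 and 2. Over the 6 arrays Cyp2e1 and Cyp1a2 were correlated at -0.75, a description over 3 stages that share a platform and normalisation. Cyp2e1, Cyp1a2 and Cyp2f2 lay between the 99.1 and 99.9 percentiles of gene brightness, near the arrays' highest values of 14.91 to 15.05. Loss of signal range at that height was not tested.

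**Figure D2:**
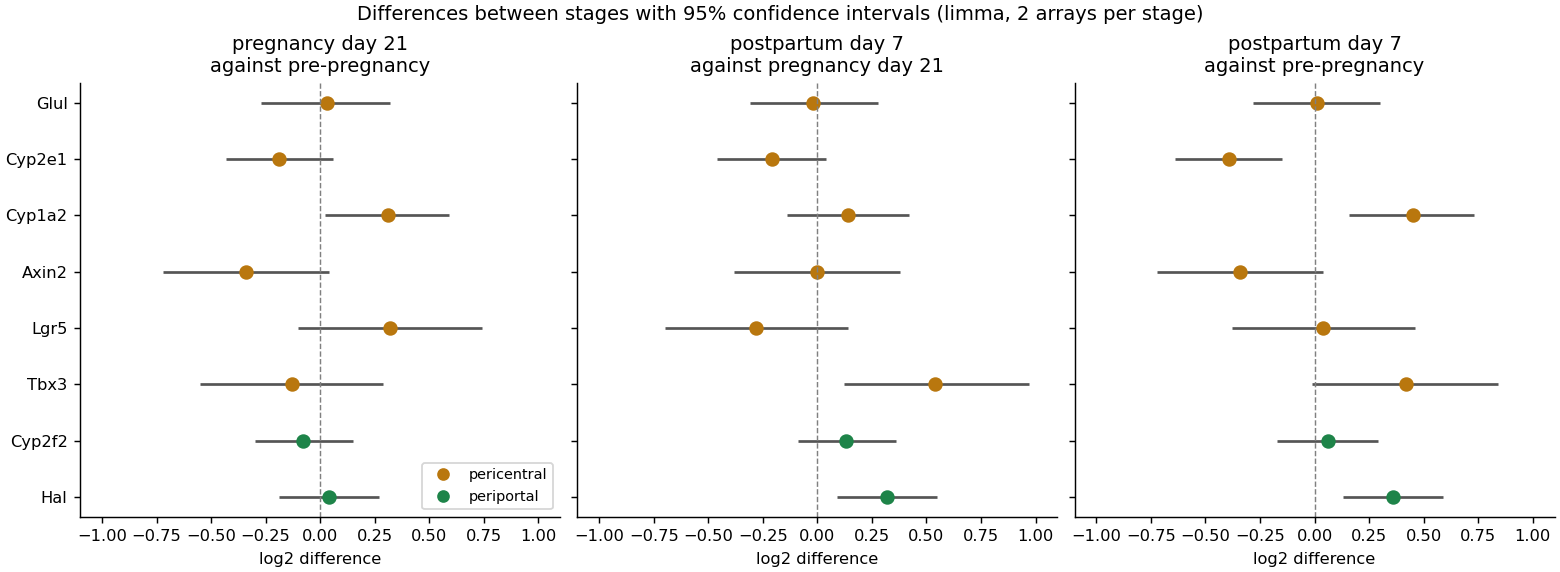
Log2 difference of each marker in the 3 comparisons (x axis, later stage minus earlier stage); points are limma estimates, bars are 95% confidence intervals, and colours give the zone. Intervals leave out 0 for Cyp1a2 in pregnancy against pre-pregnancy, for Tbx3 and Hal in postpartum against pregnancy, and for Cyp2e1, Cyp1a2 and Hal in postpartum against pre-pregnancy, before adjustment for the number of genes.

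Axin2, Lgr5 and Tbx3 are transcribed in response to Wnt signalling. Axin2 encodes a scaffold of the complex that destroys beta-catenin, and its level is a common readout of the pathway. Its arrays read 6.21 and 6.3 before pregnancy, 6.17 and 5.66 at day 21 and 5.97 and 5.86 postpartum (log2). Both day 21 arrays lay below the pre-pregnancy arrays, and they were 0.51 apart. The pregnancy difference was -0.34 ± 0.165 (SE, limma adjusted p = 0.204), at -0.59 without pregnancy replicate 1, where it passed (adjusted p = 0.0335; 0.0335 to 0.808 over the alternatives for Axin2), and -0.08 without pregnancy replicate 2. The postpartum and pregnancy means were both 5.92, and postpartum against pre-pregnancy gave -0.34 ± 0.165 (adjusted p = 0.274). A second, dim Axin2 probe set had means of 3.84, 4.08 and 3.88 at the 3 stages in order, with a pregnancy difference of 0.25 ± 0.13 (adjusted p = 0.245), opposite in sign.

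Lgr5, the R-spondin receptor found on pericentral hepatocytes and on stem cells of other tissues, stood at 6.31 and 6.62 before pregnancy, 7.01 and 6.56 at day 21 and 6.37 and 6.64 postpartum. Its stages overlapped throughout. The difference was 0.32 ± 0.182 (95% interval -0.1 to 0.74, adjusted p = 0.271) in pregnancy against pre-pregnancy, and it was 0.54 without pregnancy replicate 2 and 0.09 without replicate 1. Postpartum against pregnancy it was -0.28 ± 0.182 (adjusted p = 0.43), and postpartum against pre-pregnancy 0.04 ± 0.182 (adjusted p = 0.939). The other Lgr5 probe set was dim, with means of 4.46, 4.54 and 4.61 at the 3 stages in order.

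Tbx3, a T-box transcription factor, had 7.45 and 7.87 before pregnancy, 7.47 and 7.59 at day 21 and 8.29 and 7.86 postpartum (log2). Both postpartum arrays lay above both day 21 arrays, and the gene showed the widest span of stage means of the 8 markers, 0.54. Postpartum against pregnancy it differed by 0.54 ± 0.182 (SE, 95% interval 0.12 to 0.97, limma adjusted p = 0.151), and by 0.33 without postpartum replicate 1. It differed by -0.13 ± 0.182 in pregnancy against pre-pregnancy (adjusted p = 0.664) and by 0.42 ± 0.182 in postpartum against pre-pregnancy (adjusted p = 0.227). Postpartum replicate 1 was also high for bile duct markers, whose mean was 5.19 there and 4.66 in replicate 2, with Krt19 at 7.07 and 5.3. Their part in the Tbx3 value was not tested. Tbx3 had 5 probe sets. The next brightest gave 0.64 ± 0.301 in postpartum against pregnancy (adjusted p = 0.303), and the other 3, all dim, gave 0.29, -0.07 and 0.09. In postpartum against pre-pregnancy the next brightest gave 0.98 ± 0.301 (adjusted p = 0.0929), and the dim ones 0.04, 0.1 and 0.04. In pregnancy against pre-pregnancy it gave 0.34 ± 0.301 (adjusted p = 0.492), opposite in sign to the brightest. The dim ones gave -0.24, 0.17 and -0.05 there.

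**Figure D3:**
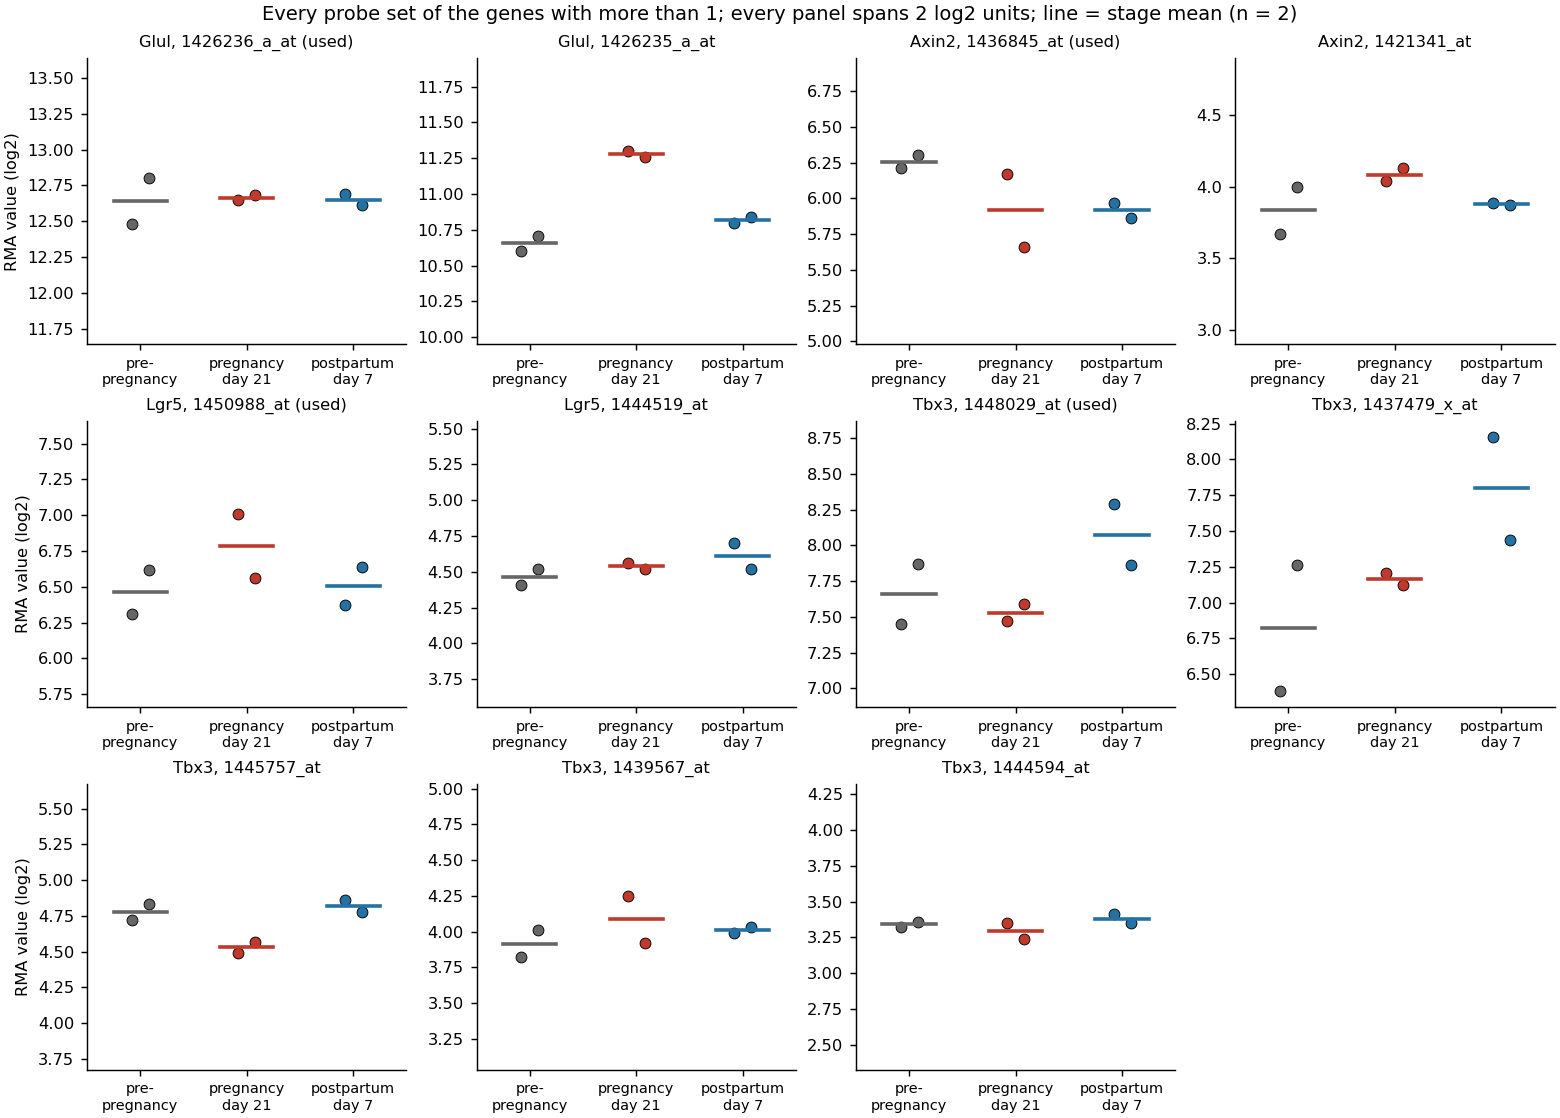
RMA value (log2) of every probe set of Glul, Axin2, Lgr5 and Tbx3, the markers with more than 1, by stage; points are arrays, lines are the means of 2 arrays, and every panel spans the same log2 distance. The second Glul probe set is highest in both day 21 arrays, and the brightest one is not.

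The periportal markers were Cyp2f2 and Hal. Cyp2f2, a P450 known for naphthalene metabolism, varied least of all 8 over the arrays. It read 13.59 and 13.64 before pregnancy, 13.57 and 13.51 at day 21 and 13.67 and 13.68 postpartum (log2), a total span of 0.17. The log2 differences were -0.08 ± 0.0977 in pregnancy against pre-pregnancy (95% interval -0.3 to 0.15), 0.13 ± 0.0977 in postpartum against pregnancy (-0.09 to 0.36) and 0.06 ± 0.0977 in postpartum against pre-pregnancy (-0.17 to 0.29). The adjusted p-values from limma were 0.639, 0.479 and 0.798 in the same order.

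Hal, histidine ammonia-lyase, opens the breakdown of histidine by removing its amino group. Its arrays read 11.31 and 11.42 before pregnancy, 11.43 and 11.38 at day 21 and 11.71 and 11.74 postpartum (log2). Both postpartum arrays lay above the other 4, which overlapped. Hal differed by 0.32 ± 0.101 in postpartum against pregnancy (SE, 95% interval 0.09 to 0.55, limma adjusted p = 0.132) and by 0.36 ± 0.101 in postpartum against pre-pregnancy (0.13 to 0.59, 28.3% higher, adjusted p = 0.0727). In pregnancy against pre-pregnancy the difference was 0.04 ± 0.101 (-0.19 to 0.27, adjusted p = 0.817). The 2 postpartum differences kept their sign and stayed between 0.29 and 0.34, and between 0.3 and 0.41, when each array was left out in turn.

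Zone averages are given as a description, since opposite signs within a zone bring them towards 0. Centring each gene on its own mean sets its average over the arrays to 0 and leaves the differences between arrays unchanged. Relative to each gene's own mean over the arrays, the 6 pericentral markers averaged -0.14 and 0.12 before pregnancy, 0.06 and -0.08 at day 21 and 0.04 and 0 postpartum (log2). The 2 periportal markers averaged -0.1 and -0.02, then -0.05 and -0.11, then 0.14 and 0.16. Pericentral minus periportal was -0.04 and 0.15 before pregnancy, 0.11 and 0.03 at day 21 and -0.09 and -0.16 postpartum, so that the postpartum arrays were the lowest. The periportal side of this value rests on Cyp2f2 and Hal alone. Arrays of the later and the earlier stage did not overlap for 4 of 8 markers in pregnancy against pre-pregnancy, 5 of 8 in postpartum against pregnancy and 5 of 8 in postpartum against pre-pregnancy, beside 59.6%, 50.1% and 52.6% of all genes.

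Other genes of the same zones were called in every comparison. The lists here and below were chosen with earlier results of these data known, so their counts and medians are a description only. Of 21 further pericentral genes, 19 were measured, and in pregnancy against pre-pregnancy 3 rose and 7 fell, with a median log2 difference of -0.35 against 0.05 over all genes. Of all genes, 5.46% rose and 8.25% fell. Proline dehydrogenase Prodh fell by 1.49 on the log2 scale (SE 0.148, limma adjusted p = 0.00193), the ornithine aminotransferase gene Oat by 1.42 (SE 0.129, adjusted p = 0.0013) and the P450 gene Cyp2c54 by 1.04 (SE 0.11, adjusted p = 0.00224). The glutathione transferase gene Gstm3 rose by 1.24 ± 0.145 (adjusted p = 0.00308). These 4 genes kept their calls with each of the 6 arrays left out. The count of 10 was 5 without either pre-pregnancy array and 9 to 11 without any other array.

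Prodh read 9.47 and 9.73 at day 21, against 10.96 and 11.21 before pregnancy, and Oat 11.23 and 10.97 against 12.42 and 12.62. The pregnant and pre-pregnancy arrays of both genes were far apart, while those of the brightest probe set of Glul, which marks the same innermost cells as Oat, overlapped. The second Glul probe set was higher in pregnancy by 0.63 ± 0.103 (limma adjusted p = 0.00916), opposite in sign to Oat and Prodh. Rhbg, an ammonium transporter of those innermost cells, read 8.78 and 8.82 at day 21, against 8.84 and 8.88 before pregnancy (log2 difference -0.06 ± 0.0993, limma adjusted p = 0.716). It rose by 0.56 ± 0.0993 in postpartum against pregnancy (adjusted p = 0.0297), a call lost with any of the 6 arrays left out.

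Postpartum against pre-pregnancy, 3 of the 19 further pericentral genes rose and 5 fell, with a median of -0.12 against 0.03 over all genes, of which 3.91% rose and 3.75% fell. Gstm3 rose by 2.06 ± 0.145 (log2, SE, limma adjusted p = 0.00138) and Cyp2c54 fell by 1.16 (SE 0.11, adjusted p = 0.00266), and both calls held with each array left out. Gstm2 rose by 1.14 ± 0.146 and Lect2, a secreted hepatocyte protein and Wnt target, fell by 0.93 (SE 0.126), and each of these calls was lost without either pre-pregnancy array. The count of 8 was 2 without either pre-pregnancy array, 4 without either postpartum array and 8 without either pregnancy array. Postpartum against pregnancy, 3 rose, among them Prodh by 1.13 ± 0.148 (adjusted p = 0.0117, and 0.0702 without postpartum replicate 1), and Nr1i3, the xenobiotic receptor CAR, fell by 0.62 (SE 0.13, adjusted p = 0.0488). Of all genes, 2.41% rose and 0.879% fell. That count of 4 was 0 to 3 with each array left out, and 0 without postpartum replicate 1.

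Of 21 further periportal genes, 20 were measured. In pregnancy against pre-pregnancy 4 rose and 4 fell, beside 5.46% and 8.25% of all genes, with a median of -0.15 against 0.05 over all genes. The mitochondrial aldehyde dehydrogenase gene Aldh1b1 rose by 1.54 ± 0.178 (log2, SE, limma adjusted p = 0.00291), Etnppl, a phospholyase, fell by 1.3 (SE 0.162, adjusted p = 0.00377), and the steroid dehydrogenase gene Hsd17b6 rose by 1.04 ± 0.142 (adjusted p = 0.00513, and 0.0646 without pre-pregnancy replicate 1). Asl, the urea cycle enzyme argininosuccinate lyase, fell by 0.64 (SE 0.123, adjusted p = 0.0167, lost without either pre-pregnancy array or pregnancy replicate 1). Other genes of urea and glucose synthesis were not called, with Cps1 at -0.16 ± 0.115, Arg1 at 0.03 ± 0.104 and Pck1 at 0.04 ± 0.21. The count of 8 was 2 and 4 without pre-pregnancy replicates 1 and 2, and 6 or 7 without any other array.

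In postpartum against pregnancy 3 of the 20 rose and 1 fell, beside 2.41% and 0.879% of all genes, with a median of 0.13 against -0.01 over all genes. Etnppl rose by 1.97 ± 0.162 (adjusted p = 0.00259) and Hsd17b6 fell by 1.15 (SE 0.142, adjusted p = 0.00933, and 0.0501 without postpartum replicate 2). Asl rose by 0.73 ± 0.123 (adjusted p = 0.0255), a call kept with 1 of 6 arrays left out, and Ass1, the enzyme before it in the urea cycle, by 1.06 ± 0.19 (adjusted p = 0.031), kept with 2. Ass1, abundant in liver, was read here from a probe set at only the 52.9 percentile of brightness, and what that probe set detects was not tested. The count of 4 was 1 to 3 with each array left out, and 1 without postpartum replicate 2. Postpartum against pre-pregnancy 6 rose and 0 fell, beside 3.91% and 3.75% of all genes, with a median of 0.07 against 0.03 over all genes. Aldh1b1 rose by 1.12 ± 0.178 (adjusted p = 0.0134, lost without any of the 4 arrays compared). That count of 6 was 0 or 1 without any of those 4 arrays.

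**Figure D4:**
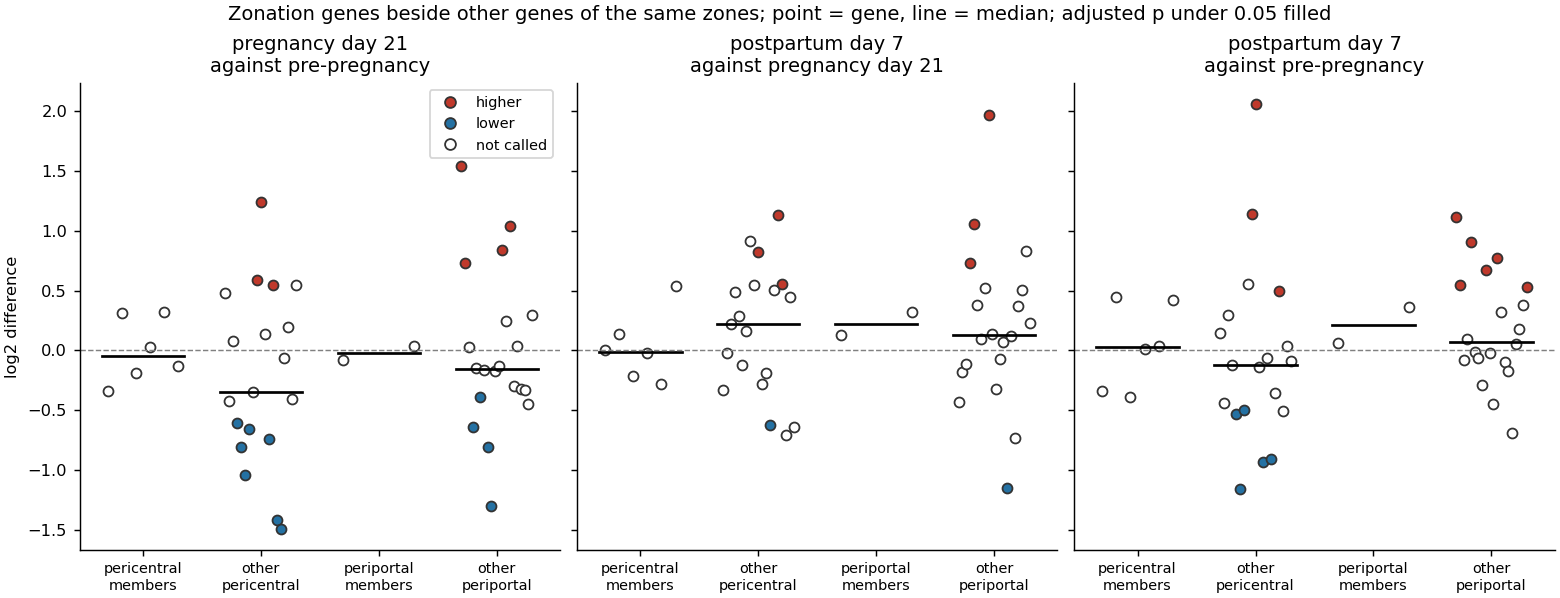
Log2 difference of each gene in the 3 comparisons (y axis, later stage minus earlier stage) for the markers and for the other genes of their zones; points are genes, filled where limma's adjusted p was under 0.05, and lines are medians. The markers, which are fewer, lie within a narrower band than the other genes, and none of them is filled.

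The Wnt pathway genes that set the pericentral zone were also measured, 33 of 34 listed. In pregnancy against pre-pregnancy 2 rose and 0 fell, beside 5.46% and 8.25% of all genes, with a median log2 difference of -0.01 against 0.05 over all genes. The share that rose was near that of all genes. The 2 genes were Wnt9b, a ligand of central vein endothelium, by 0.53 ± 0.126 (SE, limma adjusted p = 0.0321), and the co-receptor Lrp5 by 0.56 ± 0.147 (adjusted p = 0.0432). Each kept its call with only 1 of 6 arrays left out, without pregnancy replicate 2. Wnt9b read 5.85 and 5.55 at day 21, against 5.13 and 5.21 before pregnancy, under the 40th percentile of brightness. Of 15 endothelial markers, which include Wnt9b, Wnt2 and Rspo3, 1 rose, Wnt9b itself, and 3 fell in the same comparison. The same shares of all genes, 5.46% and 8.25%, stand beside these. Of the 15 differences 10 were negative and 5 positive, with a median of -0.31.

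Other regulators were not called. Wnt2, another central vein ligand, differed by 0.26 ± 0.139 (adjusted p = 0.245) in pregnancy against pre-pregnancy, and the R-spondin gene Rspo3 by -0.31 ± 0.143 (adjusted p = 0.186). Ctnnb1, which encodes beta-catenin, differed by -0.12 ± 0.111, its DNA-binding partner Tcf7l2 by -0.12 ± 0.0993, the destruction complex gene Apc by -0.35 ± 0.109 (adjusted p = 0.0724), and the R-spondin receptor gene Lgr4 by 0.1 ± 0.267. None of these 6 passed in the other comparisons. Hnf4a, a transcription factor of all hepatocytes, differed by 0.11, -0.04 and 0.07 in the 3 comparisons, uncalled in each.

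Znrf3 and Rnf43 encode membrane ligases that remove Wnt receptors and are themselves Wnt targets, and here their values went opposite ways. Rnf43 read 6.57 and 6.43 before pregnancy, 6.8 and 7.49 at day 21 and 7.61 and 7.98 postpartum (log2), with no overlap between stages. Postpartum against pre-pregnancy it rose by 1.29 ± 0.223 (SE, limma adjusted p = 0.017), and it was the 1 of 33 pathway genes called in that comparison, beside 7.66% of all genes. The difference ranged from 1.11 to 1.48 with each array left out, and the call was lost without either pre-pregnancy array or postpartum replicate 2 (adjusted p = 0.134, 0.104 and 0.11). Znrf3 differed by -0.39 ± 0.112 (adjusted p = 0.0757). In postpartum against pregnancy, where 3.29% of all genes were called, the 1 call was the receptor gene Fzd7, at 0.57 ± 0.113 (adjusted p = 0.0405), which did not hold with any array left out.

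AhR targets were listed because Cyp1a2 is one of the best known. Of 10 listed, 8 were measured. Cyp1a1, a P450 of the same family, read 5.91 and 5.36 before pregnancy, 5.52 and 5.76 at day 21 and 7.37 and 6.64 postpartum (log2). It rose by 1.37 ± 0.258 (SE, limma adjusted p = 0.022) in postpartum against pre-pregnancy, and the call was lost without either pre-pregnancy array or postpartum replicate 1 (1.64, 1.09 and 1.01). The quinone reductase gene Nqo1 rose by 1.29 ± 0.12 in postpartum against pregnancy (adjusted p = 0.0032, kept with each array left out) and by 0.97 ± 0.12 in postpartum against pre-pregnancy (adjusted p = 0.00671, lost without either pre-pregnancy array). Arnt, the partner of AhR, fell by 0.58 (SE 0.0996) postpartum against pre-pregnancy and by 0.48 (SE 0.0996) in pregnancy against pre-pregnancy. Each call was lost without either pre-pregnancy array, among others. Ahr itself differed by 0.48 ± 0.184 in pregnancy against pre-pregnancy (adjusted p = 0.123), at 0.2 without pregnancy replicate 2 and 0.76 without replicate 1, where it passed (adjusted p = 0.0239). Over the 8 genes, the median difference was 0.07 in pregnancy against pre-pregnancy, -0.06 in postpartum against pregnancy and 0.09 in postpartum against pre-pregnancy. Over all genes it was 0.05, -0.01 and 0.03. In the same order 6, 2 and 5 of the 8 differences were positive, and 2, 6 and 3 were negative. In all, 0 of the 8 rose and 1 fell in pregnancy against pre-pregnancy, beside 5.46% and 8.25% of all genes. In postpartum against pregnancy 2 rose and 0 fell, beside 2.41% and 0.879%, and in postpartum against pre-pregnancy 2 rose and 1 fell, beside 3.91% and 3.75%. With 8 genes, 1 call is near the background. Without either pre-pregnancy array the last count was 0, without postpartum replicate 1 it was 1, and the other counts were 0 to 2 with each array left out.

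Hal and Glul sit in histidine and glutamine metabolism, and 18 of 20 listed enzymes and carriers of glutamine, histidine and serine were measured. Postpartum against pre-pregnancy 2 rose and 0 fell, beside 3.91% and 3.75% of all genes. They were urocanate hydratase Uroc1, which follows Hal on the histidine route, by 0.53 ± 0.112 (log2, SE, limma adjusted p = 0.0307) and the next enzyme of that route, imidazolonepropionase Amdhd1, by 0.59 ± 0.118 (adjusted p = 0.0259). Both calls were lost without any of the 4 arrays compared, and the count was 4 without either pregnancy array. Amdhd1 read 10.88 and 10.77 postpartum, against 10.22 and 10.24 before pregnancy, and Uroc1 12.08 and 12.16 against 11.49 and 11.68. Ftcd, the last enzyme of the route, differed by 0.17 ± 0.115 (adjusted p = 0.448).

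In pregnancy against pre-pregnancy 2 of the 18 rose and 3 fell, beside 5.46% and 8.25% of all genes. The serine synthesis genes Psph (0.74 ± 0.163) and Phgdh (0.47 ± 0.117) rose, and the amino acid carrier Slc38a4 fell by 0.92 (SE 0.2), by 0.57 without pregnancy replicate 2. This count of 5 was 0 without either pre-pregnancy array, 1 without pregnancy replicate 2, 2 without either postpartum array and 5 without pregnancy replicate 1. Postpartum against pregnancy 2 rose and 1 fell, beside 2.41% and 0.879% of all genes. Got1, an aspartate aminotransferase, rose by 1.21 ± 0.154 (adjusted p = 0.0105, and 0.0684 and 0.0521 without postpartum replicates 1 and 2), Srr rose by 0.67 ± 0.107 and Phgdh fell by 0.61 (SE 0.117). That count of 3 was 0 without either postpartum array, 1 without either pre-pregnancy array or pregnancy replicate 2, and 4 without pregnancy replicate 1. Glud1, glutamate dehydrogenase, was called in none of the 3 comparisons (0.09 ± 0.1, -0.17 ± 0.1 and -0.09 ± 0.1).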

How the data were processed

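The deposited table holds 1 log2 value for each of 45101 probe sets on 6 Affymetrix arrays; the authors made it with RMA and Affymetrix Power Tools, per the submitters' processing notes. No version or setting is stated in the sources used here, and the log2 base is inferred from the values. Where RMA includes quantile normalisation, a shift common to most genes is not kept. Platform annotation gave 1 symbol to 34958 probe sets and several to 932, which were left unnamed; 34754 gene IDs were found in the RefSeq gene table and 0 symbols changed.

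Tests across all 18194 genes used limma 3.58.1 (R 4.3.3): lmFit and eBayes on stage means over all 6 arrays, with 3 residual and 4.8 prior degrees of freedom. The procedure was tested on simulated data with 200 genes changed, fewer than were called in each comparison here. It recovered 10.1% to 10.4% of log2 differences of 0.5 there, and 67.1% to 68.1% of those of 1. The labels call the replicates biological and say no more, so p-values measure the spread between these samples. The labels give no batch. List genes named with values are up to 6 called genes per list and comparison, by size, the 11 regulators fixed by name, and Cps1, Arg1, Pck1, Rhbg, Ftcd, Glud1 and, in pregnancy, Asl, named after their values were seen. Genes most like a marker were to be named only for markers called, and there were 0. The members and lists were chosen with earlier results of these data known. Alternatives are given in the closing section.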

Additional observations from a re-analysis of the deposited data

How the results depend on the processing

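The count of zonation markers called, 0 of 8 in each comparison by limma, was recomputed with the replicate number as a block, each array left out, dim genes left out, quantile normalization again, array medians set equal, a variance with trend and robust fitting, all probe sets of a gene averaged, only the 2 stages compared, adjusted p under 0.1 and at least a 2-fold change. It stayed at 0 except as follows. In pregnancy against pre-pregnancy it was 0 to 1 with each array left out (Axin2, without pregnancy replicate 1). In postpartum against pre-pregnancy it was 3 with the trended, robust variance, 3 at adjusted p under 0.1 (Cyp2e1, Cyp1a2 and Hal in both) and 1 with probe sets averaged (Cyp2e1); adjusted p over the alternatives ran from 0.00804 to 0.245 for Cyp2e1, 0.0161 to 0.336 for Cyp1a2 and 0.0319 to 0.331 for Hal. Of 111 recomputed marker differences per comparison, 2 passed the threshold in pregnancy against pre-pregnancy, 0 in postpartum against pregnancy and 4 in postpartum against pre-pregnancy, and 0 of these differed in sign from the value reported. Of the 111 differences, 8, 4 and 5 had the opposite sign in these comparisons, in the same order, without passing. The labels link same-numbered replicates by a number and nothing else. Correlations of their deviations were 0.0285, -0.0273 and 0.111, which cannot show whether they share a batch or pairing. With the replicate block the count of markers called was 0 in each comparison. Over all genes, 2494, 599 and 1393 were called in these comparisons, 323 to 1977, 115 to 528 and 73 to 1582 with an array left out, 4066, 1337 and 2489 at adjusted p under 0.1, 429, 180 and 262 with at least a 2-fold change, and 203 in postpartum against pregnancy from only those stages. The counts of the lists moved by over 1.5 times with arrays left out as given beside them; fewer arrays leave fewer degrees of freedom. Leaving out 1 array leaves a lone array that is assumed to vary like the other stages.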
